A study of Caenorhabditis elegans with 2 samples.

Results

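CYTB, COX1, COX2, COX3 and ATP6 are 5 of the 12 protein-coding genes on the mitochondrial genome of Caenorhabditis elegans, and of 19985 protein-coding genes in all. They were chosen by name, with earlier results of these data known, as the genes of cytochrome b, of subunits I, II and III of cytochrome c oxidase and of subunit 6 of the membrane part of ATP synthase. Every peak that overlapped one of them was then collected, so the peak values are given as a description, with no test.

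Chromatin immunoprecipitation followed by sequencing was done with an antibody against GFP on whole young adult hermaphrodites of strain OP429, genotype unc-119(tm4063) III; wgIs429. The strain stably carries F23B12.7 with a GFP-FLAG tag at its C-terminus. The labels' antibody field names F23B12.7 itself. Both samples, biological replicates 1 and 2, belonged to 1 group, which carried the unc-119 mutation and the transgene throughout. No strain without the tag was analysed here, and the promoter that drives the transgene is not given in the sources used here. Peak lists in ce11 of 4 kinds were used. Each replicate had a list of 30000 peaks and background regions, as did the pooled reads, and a set of 1707 peaks had passed a threshold on the irreproducible discovery rate (IDR peaks). The IDR peaks were pooled peaks, so those lists are not independent. Depth is unknown.

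The mitochondrial genome is a small circle, present in many copies per cell, that is kept apart from the chromosomes of the nucleus and encodes a core of membrane subunits for oxidative phosphorylation. Cytochrome b is the catalytic core of complex III, which hands electrons from ubiquinol to cytochrome c. COX1, COX2 and COX3 form the core of complex IV, which passes these electrons to oxygen, and ATP6 lies in the proton path of ATP synthase, complex V. In animals, mitochondrial genes are transcribed as long RNAs that are cut largely at the tRNAs between them. F23B12.7 is the worm counterpart of human CEBPZ, which is named as a CCAAT/enhancer-binding protein, and of yeast Noc1, a nucleolar factor of ribosome assembly.

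All 36 annotated mitochondrial genes, 22 of them for tRNAs, lay on the plus strand of the 13794 bp genome. The genes described here covered 4755 bp. In the RefSeq annotation of WBcel235, the assembly that ce11 stands for, CYTB spans 4504 to 5616 (1113 bp), COX1 7845 to 9422 (1578 bp) and COX2 9649 to 10344 (696 bp). COX3 spans 5678 to 6445 (768 bp), and ATP6 2634 to 3233 (600 bp). Each span is a single coding exon. The sequences around the gene starts are shown because several peaks cross them. Each run holds 15 bases before the gene and the first 45 bases of it, on the plus strand from RefSeq WBcel235, with the first codon in capitals.
CYTB (chrM:4489-4548): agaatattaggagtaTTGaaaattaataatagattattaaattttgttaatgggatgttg
COX1 (chrM:7830-7889): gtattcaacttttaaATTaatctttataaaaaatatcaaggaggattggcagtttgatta
COX2 (chrM:9634-9693): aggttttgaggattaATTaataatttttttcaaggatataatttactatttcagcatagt
COX3 (chrM:5663-5722): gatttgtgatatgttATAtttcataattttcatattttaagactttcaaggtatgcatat
ATP6 (chrM:2619-2678): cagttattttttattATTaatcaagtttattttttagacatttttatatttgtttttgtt
None of the 5 began with ATG. COX1, COX2 and ATP6 began with ATT, COX3 with ATA and CYTB with TTG, which are start codons in invertebrate mitochondria. The Ensembl annotation starts COX1 18 bp earlier, at 7827, and the other members at the same base. Positions in COX1 are counted here from the RefSeq start.

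The next set shows the strongest IDR summit inside each gene with 50 bp on each side, since the summit is the single point given for each peak. It need not be the middle of the peak, and in COX3 it lies near the 3′ edge. Capitals run from the lowest to the highest of the IDR summit and the nearest replicate summits that fell inside the window.
CYTB (chrM:4683-4783): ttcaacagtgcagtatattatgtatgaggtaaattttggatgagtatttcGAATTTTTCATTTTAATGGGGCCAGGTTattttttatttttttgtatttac
COX1 (chrM:7837-7937): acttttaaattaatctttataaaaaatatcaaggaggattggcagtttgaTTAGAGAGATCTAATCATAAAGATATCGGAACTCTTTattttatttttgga
COX2 (chrM:9680-9780): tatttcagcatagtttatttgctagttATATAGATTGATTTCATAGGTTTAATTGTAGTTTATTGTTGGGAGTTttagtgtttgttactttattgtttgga
COX3 (chrM:5823-5923): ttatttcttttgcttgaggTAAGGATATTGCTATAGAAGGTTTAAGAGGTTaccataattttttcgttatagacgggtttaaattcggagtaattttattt
ATP6 (chrM:2898-2998): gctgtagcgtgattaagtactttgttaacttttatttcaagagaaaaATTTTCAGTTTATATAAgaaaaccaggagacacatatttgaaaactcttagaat
The capitals span 28 bp in CYTB, 47 bp in COX2 and 17 bp in ATP6, each with the summits of 3 lists. In COX1 (37 bp) and COX3 (32 bp) the capitals join the IDR summit to replicate 1 alone, because the summit of replicate 2 fell outside the window.

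All 5 genes were overlapped by at least 1 bp of an IDR peak, as were 5.58% of the 19985 protein-coding genes and 12 of the 12 mitochondrial ones (100%). Overlap with an IDR peak therefore did not separate these genes from the rest of the mitochondrial genome. In the full lists, 47.2% of protein-coding genes were overlapped by a pooled peak, 49.3% by a peak of replicate 1 and 49.7% by one of replicate 2, and all 5 genes again were. Of the 23 mitochondrial IDR peaks, 10 touched one of the 5 genes and 13 did not. The 10 had signal values from 79.2 to 2417 with a median of 167, and the 13 from 90.2 to 1088 with a median of 404. Signal is the authors' own enrichment value, comparable within a list and not between lists, so ranks by signal are given for each list, with 1 the highest. The ranks of the 10 among the 1707 IDR peaks ran from 1 to 287, with a median of 33.5.

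**Figure D1:**
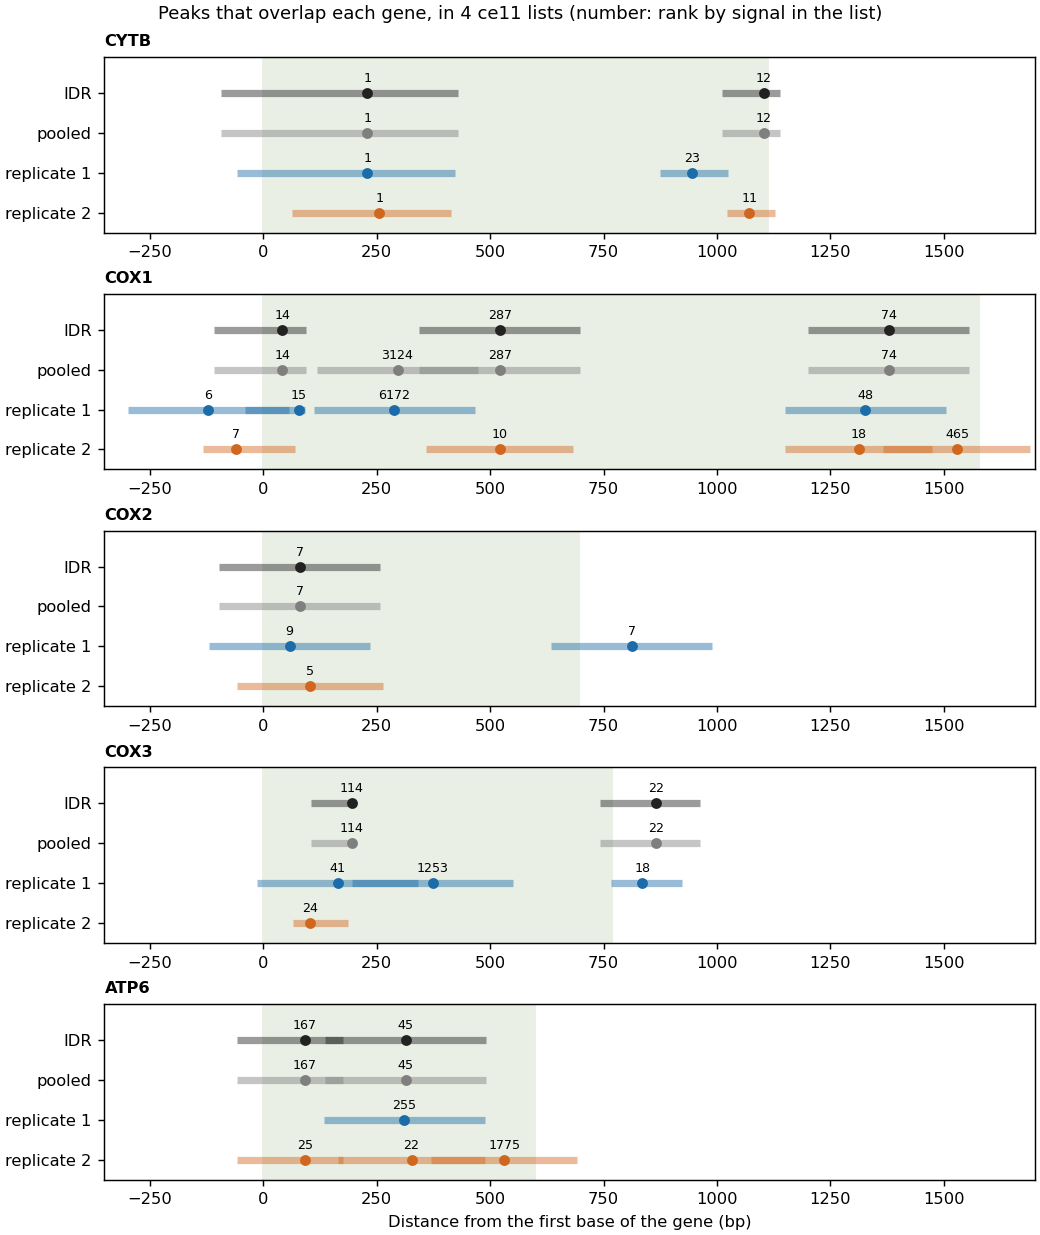
Peaks that overlap each gene in the IDR, pooled, replicate 1 and replicate 2 lists, against the distance in bp from the first base of the gene (shaded: the gene; bars: peaks; dots: summits; numbers: rank by signal in the list). The leading CYTB peak ranks 1 in every list, and the COX1 start is crossed by peaks whose summits lie from 121 bp before it to 78 bp after it.

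CYTB carried the highest signal in each of the 4 lists. The IDR peak (4412 to 4933, 522 bp wide) had a signal of 2417. Replicate 1 had a peak of signal 1476 there and replicate 2 one of signal 966, and each ranked 1 of 30000. The IDR summit lay 229 bp into the gene, at 4733, or 20.6% of its length. The summit of replicate 1 was at the same base and that of replicate 2 was 27 bp further on. The IDR peak also covered 28 bp of the tRNA-Gln gene, the whole tRNA-Phe gene (57 bp) and 430 bp of CYTB, whereas the peak of replicate 2 (4567 to 4918) lay wholly within CYTB.

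The lead of this peak over the next differed between the replicates. In every list the peak ranked 2 had its summit in ND5, the gene of a subunit of complex I, but it was not the same ND5 peak. Its summit was at 13172 among IDR peaks and 13177 in replicate 2, but at 12393 in replicate 1. The leads in the 2 replicates are therefore over different peaks. The CYTB signal was 2.22 times that of the next peak among IDR peaks, 3.11 times in replicate 1 and 1.22 times in replicate 2. It was 7.79 times the highest nuclear signal among IDR peaks, 7.58 times in replicate 1 and 8.42 times in replicate 2. The copy number of mitochondrial DNA and the coverage of the control there were not measured here, and their part in these values was not tested.

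A second IDR peak lay at the 3′ end of CYTB (5516 to 5644, signal 325, rank 12). Its summit was at 5607, which is 99.1% of the way through the gene, and it reached 24 bp into the tRNA-Leu gene. The nearest replicate 2 summit was 32 bp before it (signal 147, rank 11). In replicate 1 the nearest was 158 bp before it, at 84.9% of the gene (signal 121, rank 23). Between the CYTB peaks, 582 bp of the gene, or 52.3%, had no IDR peak.

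COX1, whose product holds the haem and copper centre where oxygen is reduced, had 3 IDR peaks. The strongest (7736 to 7940, signal 309, rank 14) crossed the gene start, with 96 of its 205 bp in COX1 and its summit 42 bp into the gene. In both replicates the strongest overlapping peak had its summit before the gene. Replicate 1 had it 121 bp upstream, inside ND4 (signal 334, rank 6), with a weaker peak 78 bp into COX1 (signal 178, rank 15). In replicate 2 a single peak at the start had its summit 60 bp upstream, between the annotated genes (signal 186, rank 7). A stronger IDR peak, of signal 536, ended 26 bp before the first base of COX1, with its summit in ND4, and so is not counted for COX1. Around the COX1 start, the IDR list and replicate 1 thus each had a summit in ND4 and another inside COX1. The replicate 1 summits lay 39 bp after the IDR summit in ND4 and 36 bp after that in COX1. Replicate 2 had a single summit, which lay between those in ND4 and those in COX1.

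Within COX1, the IDR peak at 8188 to 8543 had the lowest signal of all mitochondrial IDR peaks (79.2, rank 287). The replicates differed there. Replicate 2 had a summit at the same base, 521 bp into the gene, with a signal of 149 and rank 10. The only overlapping peak of replicate 1 had its summit 232 bp before, with a signal of 12.9 and rank 6172. The remaining peak (9046 to 9401, signal 119, rank 74) lay near the 3′ end, with its summit at 87.4% of the gene. Replicate 1 had a summit 52 bp before it (signal 85.5, rank 48) and replicate 2 one 67 bp before it (signal 99.8, rank 18). Between the last 2 IDR peaks, 502 bp of COX1 had none.

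COX2 encodes the subunit that takes electrons from cytochrome c. It had 1 IDR peak (9552 to 9907, signal 483, rank 7), with its summit 81 bp into the gene. Replicate 1 had its summit there 58 bp into the gene (signal 248, rank 9) and replicate 2 had its 104 bp into it (signal 234, rank 5). The IDR summit lay midway, 23 bp from each. The peak took in 41 bp of the tRNA-Asp gene and all 56 bp of the tRNA-Gly gene before COX2. The 3′ part of the gene, 437 bp or 62.8%, had no IDR peak, although a replicate 1 peak of signal 273 (rank 7) with its summit in the l-rRNA gene, that of the large ribosomal RNA, reached 62 bp into COX2.

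COX3 encodes the core subunit of complex IV that carries no redox metal. It had the smallest part of its bases under IDR peaks among the mitochondrial protein-coding genes, 15.4%. The peak inside it (5784 to 5876, signal 104, rank 114) was 93 bp wide, the narrowest of the mitochondrial IDR peaks, with its summit 195 bp into the gene. Summits of the replicates were 31 bp before it in replicate 1 (signal 89.8, rank 41) and 91 bp before it in replicate 2 (signal 80.7, rank 24). The other IDR peak (6421 to 6641, signal 195, rank 22) met only the last 25 bp of COX3. Its summit was in ND4, past the tRNA-Thr gene, and 136 of its 221 bp were ND4 sequence. Replicate 1 had a counterpart of rank 18 that shared 1 bp with COX3, whereas the nearest overlapping summit of replicate 2 was 399 bp away. The share of COX3 under peaks was 72.0% in the full list of replicate 1 and 15.8% in that of replicate 2.

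ATP6 had 2 overlapping IDR peaks. The stronger (2770 to 3125, signal 139, rank 45) had its summit 314 bp into the gene, close to its middle. Replicate 1 placed its summit 3 bp before it and replicate 2 placed its own 13 bp after it. The rank there was 255 in replicate 1 (signal 50.5) and 22 in replicate 2 (signal 85.9). The weaker (2577 to 2810, signal 94.1, rank 167) crossed the gene start and the 3′ end of ND1. Replicate 2 had a peak of the same span with its summit 2 bp away (signal 78.3, rank 25). The nearest summit of replicate 1 was 220 bp away. A stronger IDR peak, of signal 449, lay inside ND1 and ended 5 bp before ATP6 began. It is the nearest peak outside the rule, and the COX3 overlap of 25 bp is the smallest inside it.

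**Figure D2:**
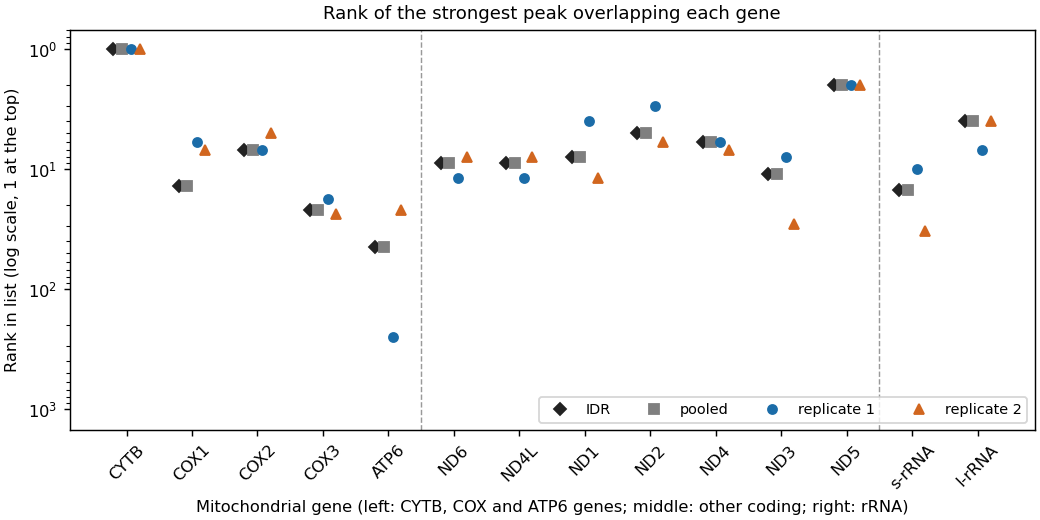
Rank by signal (log axis, 1 at the top) of the strongest peak that overlaps each of the 12 protein-coding and 2 rRNA genes, with 1 marker for each of 4 lists. CYTB is at rank 1 in all 4, and ATP6 runs from 22 in replicate 2 to 255 in replicate 1.

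When only summits inside the gene were counted, CYTB, COX2 and COX1 kept that order in the IDR list and in both replicates. COX2 ranked 7 among IDR peaks, 9 in replicate 1 and 5 in replicate 2, and COX1 ranked 14, 15 and 10 in the same order. The COX1 ranks 14 and 15 belong to peaks at the gene start. Rank 10 in replicate 2 belongs to a different peak, with its summit 521 bp into the gene. COX3 and ATP6 were lower in all 3 lists and changed places. COX3 ranked 41 and ATP6 255 in replicate 1, ATP6 ranked 22 and COX3 24 in replicate 2, and ATP6 ranked 45 and COX3 114 among IDR peaks. With any overlap counted, COX1 (rank 6) was ahead of COX2 (rank 7) in replicate 1, where both summits lay outside the genes. Among IDR peaks COX3 (rank 22) was then ahead of ATP6 (rank 45). The order of COX1 and COX2 thus depended in replicate 1 on where the summit lay, and that of COX3 and ATP6 on the replicate and, among IDR peaks, on the summit.

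Among the 7 other mitochondrial protein-coding genes, which all encode subunits of complex I, the strongest overlapping IDR peak had signals from 349 to 1088. ND6 and ND4L shared 1 of these peaks. COX1 (309), COX3 (195) and ATP6 (139) were below that range, COX2 (483) was inside it and CYTB (2417) above it. The COX3 peak had its summit in ND4, and with the summit inside the gene COX3 had 104. In the full list of replicate 1 the 7 genes ran from 203 to 475. COX1 (334) and COX2 (273) were inside that range there, with summits outside the genes, while COX3 (148) and ATP6 (50.5) were below it. The COX1 value was that of the strongest ND4 peak, which overlapped both genes, so it had to lie inside the range. With the summit inside the gene, COX1 had 178, below the range, and COX2 had 248, inside it. The COX3 peak also had its summit in ND4, and with the summit inside the gene COX3 had 89.8. In the full list of replicate 2 the 7 genes ran from 67.0 to 793, and COX1 (186), COX2 (234), ATP6 (85.9) and COX3 (80.7) were inside that range. The COX1 peak there was again the strongest one overlapping ND4, with its summit outside COX1. With the summit inside the gene, COX1 had 149. CYTB was above the range in both. The 2 rRNA genes had 298 and 631 among IDR peaks. No test was made between these sets, since the 5 genes were chosen with their values known.

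**Figure D3:**
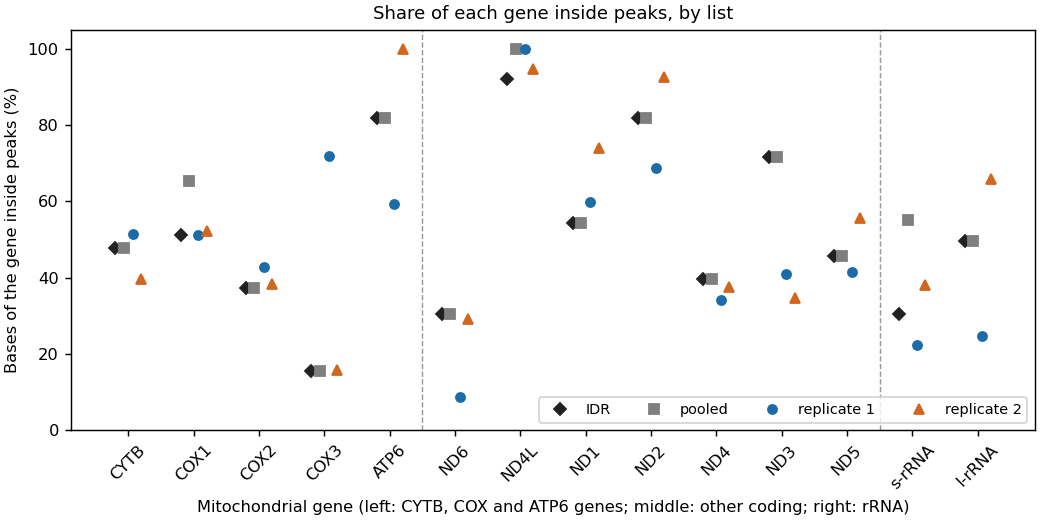
Share of the bases of each mitochondrial gene inside peaks (%), with 1 marker for each of 4 lists. COX3 is at 15.4% in the IDR list and 72.0% in replicate 1, and ATP6 is between 59.3% and 100%.

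IDR peaks covered 46.4% of the bases of the 5 genes, 53.6% of those of the 7 complex I genes and 47.2% of the mitochondrial genome. By gene the share was 82.0% in ATP6, 51.2% in COX1, 47.7% in CYTB, 37.2% in COX2 and 15.4% in COX3. The share that lay under a peak in both full replicate lists was 59.3% in ATP6, 33.9% in COX1, 33.9% in COX2, 31.9% in CYTB and 15.8% in COX3. Bases under a peak in neither replicate made up 52.9% of COX2 and 0% of ATP6. Compared by covered share over the 4 lists, the genes nearest to the median of the 5 were ND5, ND4 and s-rRNA, the gene of the small ribosomal RNA. Their Euclidean distances, which combine the differences in all 4 lists, were 19.0, 21.2 and 34.9 percentage points. Among IDR peaks alone, ND5 had 45.6%, ND4 39.5% and s-rRNA 30.4%, against a median of 47.7%. All 4 of the mitochondrial IDR peaks with a width of 356 bp, the width of 97.3% of all IDR peaks, were among the 10 at these genes (2 in COX1 and 1 each in COX2 and ATP6).

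**Figure D4:**
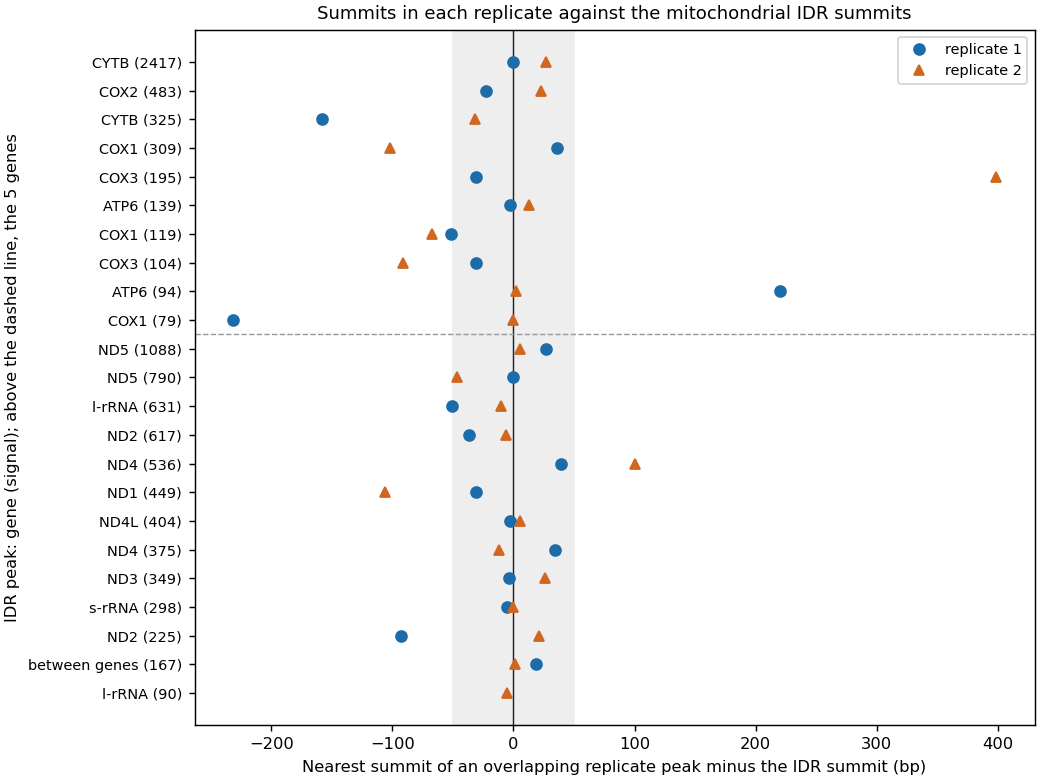
Position in bp of the nearest summit of an overlapping peak in replicate 1 and replicate 2, relative to each of the 23 mitochondrial IDR summits, with the gene and the IDR signal named on the left (shaded: within 50 bp). Above the dashed line, 3 of 10 peaks have both replicates in the shaded band, and below it 8 of 13.

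Each of the 10 IDR peaks overlapped a region in both full replicate lists by at least 1 bp, and those lists also hold background. Some of these regions matched another IDR peak as well. The strongest COX1 peak met in replicate 2 only the region that was also the only match of the ND4 peak at 7644 to 7819. The weaker ATP6 peak met in replicate 1 only the region matched to the stronger one. The COX3 peak that ends in ND4 met in replicate 2 only the region matched to the ND4 peak at 6824 to 7081. The replicate 1 region at the weakest COX1 peak had rank 6172. The nearest summit of replicate 1 lay 0 to 232 bp from the IDR summit, with a median of 33.5 bp, and that of replicate 2 lay 0 to 399 bp away, with a median of 29.5 bp. Both replicates had a summit within 50 bp for 3 of the 10, the leading CYTB peak, the COX2 peak and the stronger ATP6 peak. Among the 13 mitochondrial IDR peaks away from these genes, 8 did, the medians were 29 bp and 10 bp, and 1 had no overlapping peak in replicate 1. The pooled list had 1 further peak in the 5 genes, in COX1 (7963 to 8318, signal 28.0, rank 3124), which was not an IDR peak. Its summit was at 8141. The replicate 1 region of rank 6172, with its summit at 8134, lay nearer to it than to the weakest COX1 IDR peak, with its summit at 8366.

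The 10 summits with 50 bp on each side were 71.3 to 83.2% A+T (median 73.8%), against a median of 78.2% at the other 13 and 76.2% over all windows of that length in the mitochondrial genome. Nuclear IDR summits had a median of 54.5%. The least A+T-rich of the 5 genes was COX1 (70.3%) and the most was ATP6 (76.0%). The parts of CYTB under IDR peaks had 77.0% A+T and the rest of the gene 70.8%, COX2 had 78.4% and 71.6%, and COX3 had 73.7% and 71.7%. ATP6 went the other way, with 75.2% and 79.6%, and COX1 had 70.1% and 70.7%. Over the 23 mitochondrial peaks, which share 1 genome and the same libraries, signal and the A+T share at the summit had a Spearman rho of -0.02. The pentamer CCAAT, read on both strands as CCAAT or ATTGG, was in 1 of the 10 windows, that of the COX1 start shown above. It was in 3 of the other 13, in 15.8% of the windows of all IDR peaks and in 21.0% of all mitochondrial windows of that length. None of the 36-mers of the 5 genes was found elsewhere in the mitochondrial genome or in the nuclear chromosomes of the reference, on either strand.

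Complexes III, IV and V are completed by proteins encoded in the nucleus. Of 31 such genes in a list of structural subunits, 21 had an IDR summit within 500 bp of their start (67.7%), against 6.72% of nuclear protein-coding genes. By complex the counts were 5 of 10 for complex III, 4 of 7 for complex IV and 12 of 14 for complex V. The highest signals in complex III were 63.0 at ucr-2.2, 62.1 at isp-1, which encodes the Rieske iron-sulphur protein, and 55.6 at cyc-1, which encodes cytochrome c1. In complex IV they were 156 at cox-5A, 136 at cox-5B and 48.8 at cox-6C. In complex V they were 124 at atp-1, 117 at atp-3 and 104 at F58F12.1. Of the 21 genes, 7 had a signal above that of the weakest IDR peak in the mitochondrial genes (79.2), a value that 16.8% of all IDR peaks exceeded. Counted by overlap with the gene span instead of distance to its start, 8 of the 31 had an IDR peak, against 5.58% of all protein-coding genes. The 8 include cox-6B, which has the longest span in the list (2699663 to 2786859 on chromosome III). Its span holds 2 IDR peaks, but none has its summit within 500 bp of its start.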

How the data were processed

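The files used were narrowPeak lists in ce11, with the pooled IDR list in ce10 as an alternative. Per the text notes that the authors deposited with the lists, the lists of both replicates were called against 1 and the same control file, and the IDR set was made from the replicate and pooled lists. Not given in the sources used here were the aligner, the kind of control, the threshold on the IDR, the peak caller and how reads with several map positions were treated. The authors deposited for every peak an enrichment signal and a −log10 q-value. All 23 mitochondrial IDR peaks were among the 1187 that tied at the highest −log10 q-value of the IDR list, so signal was used for ranks. Depth is unknown, and no intervals are given.

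Gene spans came from RefSeq WBcel235 and nuclear starts from Ensembl release 115. A peak was counted for a gene at an overlap of 1 bp. Summits were taken from the deposited offset and written 1-based. With 1 group of 2 samples and genes chosen by earlier results, no test was made. The members and lists were chosen with earlier results of these data known. Named were the 5 genes with all their IDR peaks, the 3 mitochondrial genes nearest to them in covered share, and the 3 nuclear genes of highest signal in each complex. Other genes and peaks named were chosen after their values were seen. Python 3.11.15 and numpy 2.4.6 were used, and the interval code was tested on simulated data.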

Additional observations from a re-analysis of the deposited data

How the results depend on the processing

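With the summit inside the gene, or with at least 50 percent of the peak inside it, COX3 had 1 peak, not 2, and its strongest summit was at 195 bp, not 866 bp. With at least 50 percent of the peak inside the gene, COX1 had 2 peaks, not 3. The peak it lost was its strongest (rank 14, 46.8% inside COX1), and the strongest left had rank 74. Merging overlapping peaks left ATP6 with 1. Peak midpoints put the CYTB position at 168.5 bp and that of COX1 at -7 bp. Ranked by q-value, the strongest peaks of all 5 genes tied at rank 1. Only 8 nuclear genes had a peak over their span. The 1707 strongest peaks of each replicate alone gave 1 to 2 peaks for COX2, 1 to 3 for COX3 and 1 to 2 for ATP6, which had 3 in the full list of replicate 2. Over these and the full lists, the covered shares were 28.5 to 52.2% for COX1, 38.2 to 42.8% for COX2, 15.8 to 72.0% for COX3 and 59.3 to 100% for ATP6. The lower COX1 share came from the 1707 strongest peaks of replicate 1, which lack its peak of rank 6172. Strongest summits lay at 229 to 256 bp for CYTB, -121 to -60 bp for COX1, 104 to 812 bp for COX2, 104 to 835 bp for COX3 and 311 to 327 bp for ATP6. Ranks were 6 to 7 for COX1, 5 to 7 for COX2 and 22 to 255 for ATP6. In all, 93 of the recomputed values stayed within the spread between replicates or, for counts, close to the reported count, and 31 moved. Some of the 93 were bound to stay, since the IDR peaks were pooled peaks and all 10 at these genes were above the median signal. Where the replicates lay far apart, as for the ATP6 rank, a large change still counted as staying. The tally is therefore no measure of stability. All 23 mitochondrial IDR peaks had the same position in ce10. Ensembl spans and the full replicate lists were added after the data were seen. No paired analysis was possible because there was a single group. Depth is unknown, so no value shows what more reads would change.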
